A study of Danio rerio with 12 samples.

Results

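The genes nkx2.5, gata4, gata5, gata6, tbx5a, tbx20, hand2 and mef2cb encode transcription factors of the developing heart, and bmp10 encodes a growth factor secreted by it. These 9 genes were selected by symbol from a count table of 32520 genes, where each symbol belonged to a single identifier. All 9 had enough counts to be tested, among 20237 genes that did. Polyadenylated RNA was sequenced from whole wild-type AB zebrafish embryos at 3 days after fertilisation, with exposure begun a few hours after fertilisation. The groups were 30 µM testosterone with 100 µM EGCG (epigallocatechin gallate), 30 µM testosterone with 5 µM calindol, 30 µM testosterone alone, and 0.1% dimethyl sulfoxide (DMSO), the vehicle control. Each group held 3 libraries, from clutches 1, 2 and 4. In the study's design EGCG is a strong and calindol a weak antagonist of the membrane receptor GPRC6A, and the series title names cardiac edema as the effect of testosterone. Neither antagonist was given without testosterone, so a change with an antagonist cannot be told apart from an effect of that compound on its own. Whether the exposed groups also held DMSO, and the number of embryos in a library, are not given in the sources used here.

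The zebrafish heart forms from mesoderm in which Gata zinc-finger factors, Hand2 and Nkx2.5 act together to specify heart muscle cells. The T-box factors Tbx5a and Tbx20 and the MADS-box factor Mef2c then take part in differentiation and in shaping the chambers. By 3 days the heart beats and has an atrium and a ventricle. Bmp10 is a ligand made in the heart that signals to endothelial cells through the receptor Alk1, encoded by acvrl1, and Smad proteins. None of these factors is confined to heart muscle: Gata factors also act in gut and liver, Hand2 in the pharyngeal arches, fins and sympathetic neurons, Tbx5a in the pectoral fin and eye, and Mef2 factors in skeletal muscle and neurons.

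Total counts per library were 8181295 to 17988541 with EGCG, 16224041 to 19716849 with calindol, 12668572 to 22510680 with testosterone alone and 18908888 to 20799427 with DMSO. Values per library are CPM, the counts scaled to a common library size with factors from the trimmed mean of M values (TMM). Levels are compared between groups and not between genes, because they were not divided by gene length. Of 7 heart muscle markers, 6 symbols (myl7, myh6, tnnt2a, myl4, actc1a, nppa) were in the table, and all 6 had counts. The ventricular myosin gene vmhc was not found under that symbol, may be listed under another, and is missing from these markers. The atrial myosin gene myh6 averaged 7.34 ± 1.52 CPM with EGCG, 15.1 ± 2.81 CPM with calindol, 12.3 ± 2.60 CPM with testosterone and 14.1 ± 2.90 CPM with DMSO (SD, n = 3 each). Against DMSO, myh6 and myl4 fell with EGCG, while the differences of myl7 (33.5 CPM with EGCG and 35.4 CPM with DMSO), tnnt2a (19.8 and 20.05 CPM) and nppa (13.8 and 11.5 CPM), and of both identifiers of actc1a, did not pass. In whole embryos, fewer cells of a type and less RNA per cell cannot be told apart. Differences were tested with edgeR's quasi-likelihood test in 1 fit of the 12 libraries. Benjamini-Hochberg adjusted p-values were taken over all genes tested, and a gene passed at an adjusted p under 0.05. The 3 libraries of a group came from different clutches. The p-values rest on the spread between libraries within groups, estimated jointly over all 12 libraries.

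Testosterone alone changed none of the 9 genes past the threshold. Against DMSO, 0 of 9 passed with edgeR, where 6.32% of all tested genes did (2.93% higher), and 1 of 9, gata5, had an unadjusted p under 0.05. DESeq2 also called 0. Adding calindol to testosterone raised gata4 and lowered mef2cb, and adding EGCG passed for none. Between the antagonists, with EGCG, bmp10, hand2, gata5 and gata4 were lower and mef2cb was higher than with calindol. In that comparison 1 of 9 genes was higher and 4 were lower, beside 43.1% of all tested genes called, 21.1% higher and 22% lower. That background was the highest of the 6 comparisons, the others having 6.32% to 27.4%, and the count of both directions together is near it.

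**Figure D1:**
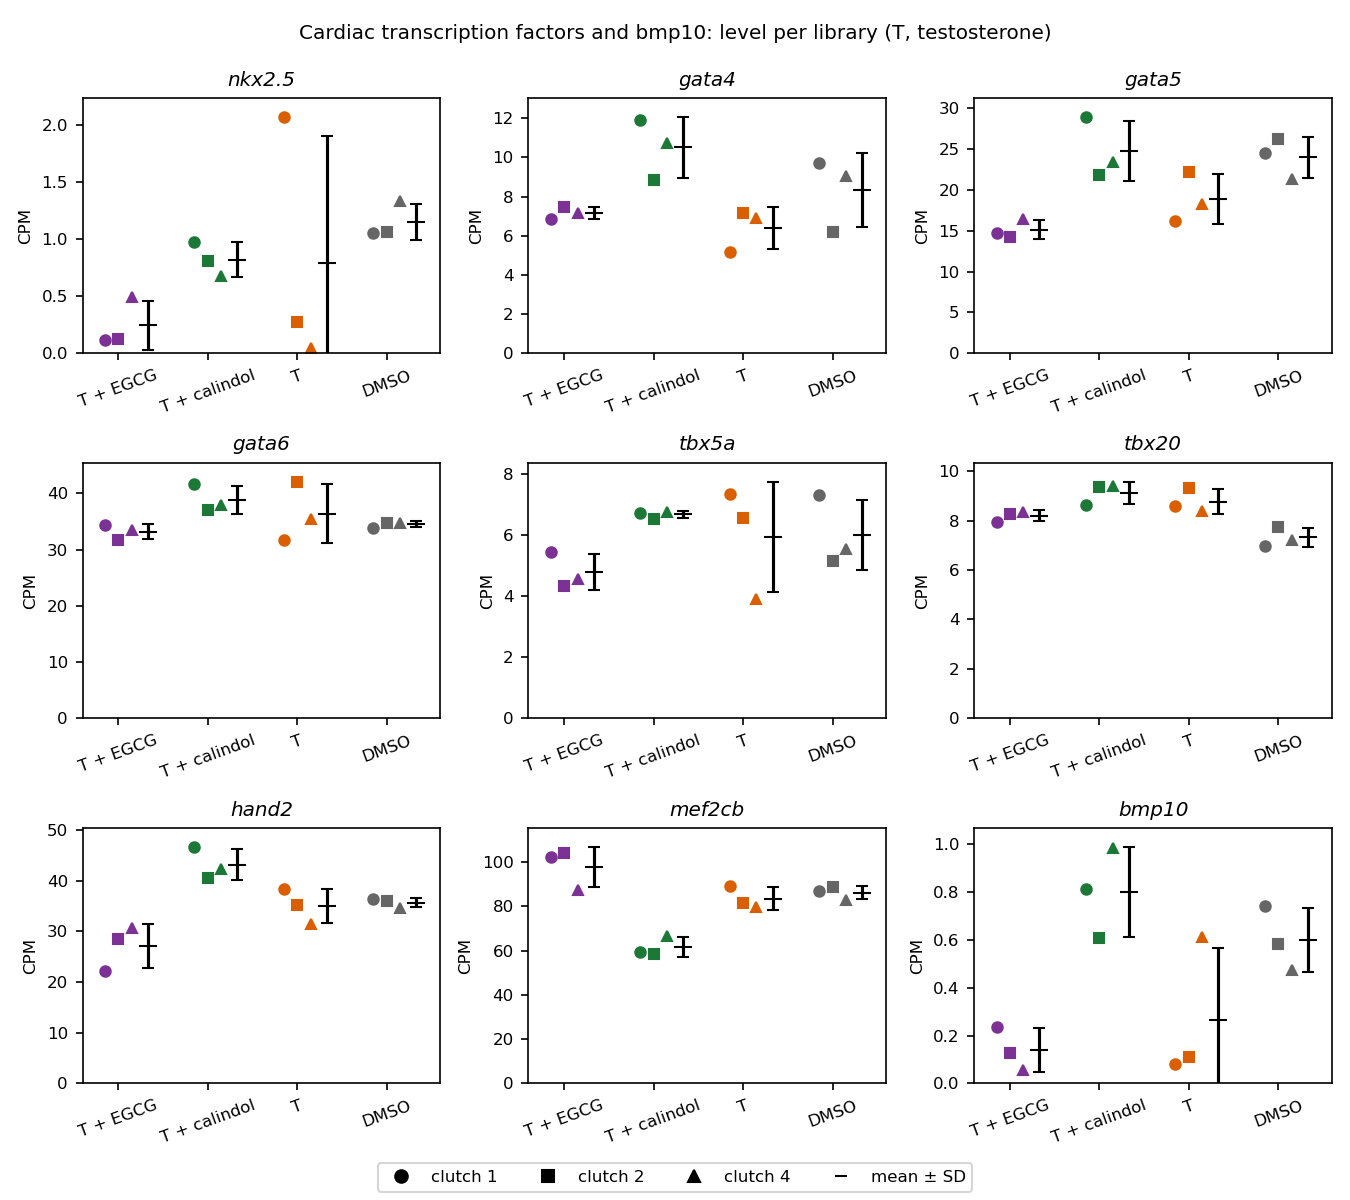
Level of each gene in CPM (vertical axis, linear, from 0) in the 12 libraries, with the groups along the horizontal axis. Symbols mark the clutch and the bars are the mean ± SD of 3 libraries, with bars that would run below 0 cropped. For mef2cb the calindol libraries sit from 58.6 to 66.8 CPM, below every library of the other groups.

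The homeobox gene nkx2.5 (ENSDARG00000018004) acts in zebrafish with its relative nkx2.7 to maintain the ventricle. It had few counts, 1 to 28 in a library. It was at 0.119, 0.127 and 0.496 CPM in the EGCG libraries of clutches 1, 2 and 4, and at 0.976, 0.810 and 0.676 CPM in the calindol libraries. With testosterone alone it was at 2.07, 0.271 and 0.0437 CPM, against 1.06, 1.06 and 1.33 CPM with DMSO. The testosterone libraries thus spanned both the highest and the lowest value of the whole series, 26 counts in clutch 1 and 1 count in clutch 4. Set against Poisson counting, the chi-square over degrees of freedom was 30.5 for these libraries, 2.52 with EGCG, 0.477 with calindol and 0.435 with DMSO.

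With EGCG every library was below every DMSO library, and the log2 fold change of nkx2.5 was −2.05 (SE 0.89, 95% interval −3.96 to −0.14), with an adjusted p of 0.128. The ratio of summed counts, 12 with EGCG against 68 with DMSO, was 0.245, with an exact 95% interval of 0.121 to 0.457 that covers counting error only. The spread of the testosterone libraries entered the estimate of variation for every comparison. With only the EGCG and DMSO libraries in the fit, that adjusted p was 0.00939. In that fit more genes passed over the whole table as well, and the cause was not tested. With all 12 libraries in the fit, nkx2.5 passed in no comparison. Testosterone against DMSO gave a log2 fold change of −0.71 (adjusted p 0.665), and calindol against DMSO −0.48 (adjusted p 0.680). Against testosterone, calindol gave 0.23 (adjusted p 0.874) and EGCG −1.34 (adjusted p 0.389). For EGCG against calindol the value was −1.56 (adjusted p 0.188). Without testosterone library 1 the gene passed for testosterone against DMSO (log2 fold change −2.91, adjusted p 0.0274) and for EGCG against DMSO (log2 fold change −2.05, adjusted p 0.0283). Without it nkx2.5 also passed for calindol against testosterone (2.43, adjusted p 0.0296) and for EGCG against calindol (−1.58, adjusted p 0.0486). Over all alternatives its adjusted p ran from 0.0274 to 0.978 for testosterone against DMSO, from 0.00939 to 0.327 for EGCG against DMSO, from 0.0296 to 0.960 for calindol against testosterone and from 0.0486 to 0.402 for EGCG against calindol. The tagwise biological coefficient of variation of nkx2.5 was 63%, against 32.9% for the trend at its level of counts.

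The Gata family was represented by gata4, gata5 and gata6, zinc-finger factors that act in heart and in endoderm; loss of gata5 in the zebrafish mutant faust reduces heart muscle precursors. For gata5 (ENSDARG00000017821) the EGCG libraries were at 14.7, 14.3 and 16.4 CPM and the calindol libraries at 28.9, 21.9 and 23.4 CPM. With testosterone alone they were at 16.2, 22.2 and 18.3 CPM, against 24.5, 26.2 and 21.3 CPM with DMSO. The EGCG libraries did not overlap the DMSO or the calindol libraries, and overlapped the testosterone libraries in a narrow range.

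The level of gata5 fell with EGCG against DMSO by 0.66 on the log2 scale (log2 fold change −0.66, SE 0.14, adjusted p 0.00632). It was also lower with EGCG than with calindol (−0.71, SE 0.14, adjusted p 0.00102). Both differences passed in every alternative run, with adjusted p from 0.000238 to 0.036 and from 6.65e-05 to 0.0065. Against DMSO, testosterone alone gave a log2 fold change of −0.34 (95% interval −0.63 to −0.05, adjusted p 0.174), lower in 3 of 3 clutches. For calindol against testosterone the value was 0.38 (SE 0.14) with an adjusted p of 0.0528, just outside the threshold, and with a range of 0.0127 to 0.202 over the alternatives. It passed with upper quartile scaling (0.0357), with no filter on low counts (0.0406), with DESeq2 (0.0449) and without testosterone library 2 (0.0127) or calindol library 2 (0.0332).

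The related gene gata4 (ENSDARG00000098952) was at 6.87, 7.45 and 7.16 CPM with EGCG and at 11.9, 8.86 and 10.8 CPM with calindol. It was at 5.18, 7.16 and 6.90 CPM with testosterone alone, against 9.74, 6.21 and 9.04 CPM with DMSO. All calindol libraries lay above all testosterone and EGCG libraries, while the DMSO libraries overlapped each of the other groups. The gene rose when calindol was added to testosterone (log2 fold change 0.70, SE 0.19, adjusted p 0.0131). Without calindol library 1 that adjusted p was 0.0508, and over the alternatives it started at 0.00519. With EGCG gata4 was lower than with calindol (−0.55, SE 0.19, adjusted p 0.0303). That call was lost in 5 of 12 fits that left out 1 library: without calindol library 1 (adjusted p 0.0983) or 4 (0.0653), or without EGCG library 1 (0.0706), 2 (0.0592) or 4 (0.0729), and the lowest adjusted p was 0.0172. Against DMSO, gata4 had log2 fold changes of −0.21 with EGCG, 0.33 with calindol and −0.37 with testosterone, none past the threshold (adjusted p 0.472, 0.201 and 0.297).

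The third Gata gene, gata6 (ENSDARG00000103589), was at 34.4, 31.7 and 33.5 CPM with EGCG and at 41.6, 37.0 and 37.8 CPM with calindol. It was at 31.6, 42.0 and 35.5 CPM with testosterone alone, against 33.9, 34.8 and 34.8 CPM with DMSO. The calindol libraries lay above the EGCG and DMSO libraries, and the testosterone libraries spanned the values of all other groups. No comparison of gata6 passed. Its largest log2 fold change was −0.23 for EGCG against calindol (95% interval −0.44 to −0.02, adjusted p 0.0755), where the groups did not overlap. That adjusted p fell under the threshold with upper quartile scaling (0.0363) and without testosterone library 1 (0.0384) or 2 (0.0297), and reached 0.182 at most. Against DMSO the 95% intervals were −0.27 to 0.15 with EGCG, −0.04 to 0.38 with calindol and −0.13 to 0.29 with testosterone.

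Of the T-box genes, tbx5a (ENSDARG00000024894) is the gene mutated in the zebrafish heartstrings line, which fails in heart looping and lacks pectoral fins. It was at 5.45, 4.33 and 4.57 CPM with EGCG and at 6.73, 6.53 and 6.76 CPM with calindol. With testosterone alone tbx5a was at 7.33, 6.56 and 3.89 CPM, against 7.30, 5.15 and 5.52 CPM with DMSO. The calindol libraries were close together, with a coefficient of variation of 1.86%, against 30.5% with testosterone alone. Set against Poisson counting, the chi-square over degrees of freedom was 0.0433 with calindol and 10.8 with testosterone. The calindol libraries were thus closer than counting error alone gives on average, and a lower variability with calindol was not tested. No comparison passed, and the lowest adjusted p was 0.0961, for EGCG against calindol (log2 fold change −0.49, SE 0.23), where the groups did not overlap. Without testosterone library 4, the lowest of its group, that adjusted p was 0.0363.

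The T-box gene tbx20 (ENSDARG00000005150), which takes part in chamber growth, separated DMSO from the exposed groups without passing the test. It was at 7.94, 8.28 and 8.37 CPM with EGCG and at 8.62, 9.36 and 9.40 CPM with calindol. It was at 8.60, 9.32 and 8.39 CPM with testosterone alone, against 6.98, 7.74 and 7.24 CPM with DMSO. Every DMSO library was below every exposed library, and 1 of 9 genes did so in the direction of higher levels with EGCG (beside 21.4% of all tested genes) and with testosterone (13.4%). The log2 fold changes against DMSO were 0.17 with EGCG (adjusted p 0.406), 0.32 with calindol (0.0768) and 0.26 with testosterone (0.269), and none passed in the reported fit or in any alternative. The comparisons share the DMSO libraries.

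The basic helix-loop-helix gene hand2 (ENSDARG00000008305), mutated in the zebrafish line hands off, is needed for heart muscle formation and for pharyngeal arch and fin development. It was at 22.3, 28.5 and 30.6 CPM with EGCG and at 46.7, 40.6 and 42.3 CPM with calindol. It was at 38.4, 35.2 and 31.5 CPM with testosterone alone, against 36.3, 36.0 and 34.7 CPM with DMSO. The EGCG libraries lay below and the calindol libraries above all others, with testosterone and DMSO overlapping between them.

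Between the antagonists, hand2 was lower with EGCG (log2 fold change −0.66, SE 0.11, adjusted p 0.000267), in 3 of 3 clutches, and passed in every alternative. Against DMSO it fell by 0.38 with EGCG (log2 fold change −0.38, SE 0.11, adjusted p 0.0303). This call was lost with clutch as a block (adjusted p 0.0524), without any DMSO library (0.089, 0.0871 and 0.0607 for clutches 1, 2 and 4) and without EGCG library 1 (0.111) or 2 (0.0679), and the lowest adjusted p was 0.00785. Against testosterone alone the log2 fold changes were −0.35 with EGCG (SE 0.11, adjusted p 0.0545) and 0.31 with calindol (SE 0.11, adjusted p 0.0513), both just outside the threshold. Over the alternatives the adjusted p of the first ran from 0.0354 to 0.187, and it passed with DESeq2 (0.0454) and without testosterone library 4 (0.0355), calindol library 1 (0.037) or EGCG library 4 (0.0354). That of the second ran from 0.0229 to 0.169, and it passed with upper quartile scaling (0.0316), with no filter on low counts (0.0401), with DESeq2 (0.0413) and without testosterone library 1 (0.0327) or EGCG library 1 (0.0229) or 4 (0.0467). Calindol against DMSO gave 0.28 (SE 0.11, adjusted p 0.0719, range 0.0262 to 0.195), and passed in the fit of those 6 libraries (0.0262) and without EGCG library 1 (0.0327).

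The MADS-box gene mef2cb (ENSDARG00000009418), which together with its duplicate mef2ca is required for heart muscle differentiation in zebrafish, moved the other way. It was at 102.1, 103.9 and 87.4 CPM with EGCG and at 59.5, 58.6 and 66.8 CPM with calindol. It was at 89.4, 81.5 and 79.5 CPM with testosterone alone, against 86.8, 88.6 and 82.9 CPM with DMSO. The calindol libraries were lowest throughout and did not overlap any other group, and the remaining groups overlapped their neighbours.

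With calindol, mef2cb fell against DMSO (log2 fold change −0.48, SE 0.08, adjusted p 0.000565) and against testosterone alone (−0.44, SE 0.08, adjusted p 0.00155). Between the antagonists it was higher with EGCG (0.67, SE 0.08, adjusted p 2.02e-05). These 3 calls held in every alternative, with the highest adjusted p at 0.00373, 0.0151 and 0.00031. With EGCG the gene had log2 fold changes of 0.18 against DMSO (adjusted p 0.141) and 0.23 against testosterone (adjusted p 0.0862, range 0.0357 to 0.301). The difference from testosterone passed with DESeq2 (0.044) and without EGCG library 4 (0.0357). Testosterone alone gave −0.05 against DMSO (95% interval −0.22 to 0.13).

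The ligand gene bmp10 (ENSDARG00000061769) had 1 to 16 counts in a library. It was at 0.237, 0.127 and 0.0551 CPM with EGCG, which are 2, 2 and 1 counts, and at 0.814, 0.607 and 0.983 CPM with calindol, which are 15, 12 and 16 counts. With testosterone alone bmp10 was at 0.0796, 0.108 and 0.612 CPM (1, 2 and 14 counts), against 0.741, 0.583 and 0.476 CPM with DMSO (14, 11 and 10 counts). The testosterone libraries of clutches 1 and 2 resembled those with EGCG, and the library of clutch 4 lay within the DMSO range. Each EGCG library was below each DMSO and each calindol library.

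With EGCG, bmp10 was lower than with calindol (log2 fold change −2.65, SE 0.76, 95% interval −4.26 to −1.03, adjusted p 0.011). The ratio of summed counts, 5 with EGCG against 43 with calindol, was 0.150, with an exact 95% interval of 0.0463 to 0.377 for counting error. This call was lost without EGCG library 4 (adjusted p 0.0633) and held in the other alternatives, from 0.00313. Against DMSO the log2 fold change with EGCG was −2.24 (SE 0.77, adjusted p 0.0605). The summed counts were 5 with EGCG against 35 with DMSO, a ratio of 0.198 with an exact 95% interval of 0.0607 to 0.509. Without testosterone library 4 the adjusted p was 0.0267, and the highest was 0.202. Calindol against testosterone gave 1.41 (SE 0.61, adjusted p 0.109). Without testosterone library 4 that value was 2.96 (adjusted p 0.0108), and over the alternatives it reached 0.268. Testosterone against DMSO gave −0.997 (SE 0.63, adjusted p 0.407), with an adjusted p from 0.0665 to 0.674 over the alternatives.

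**Figure D2:**
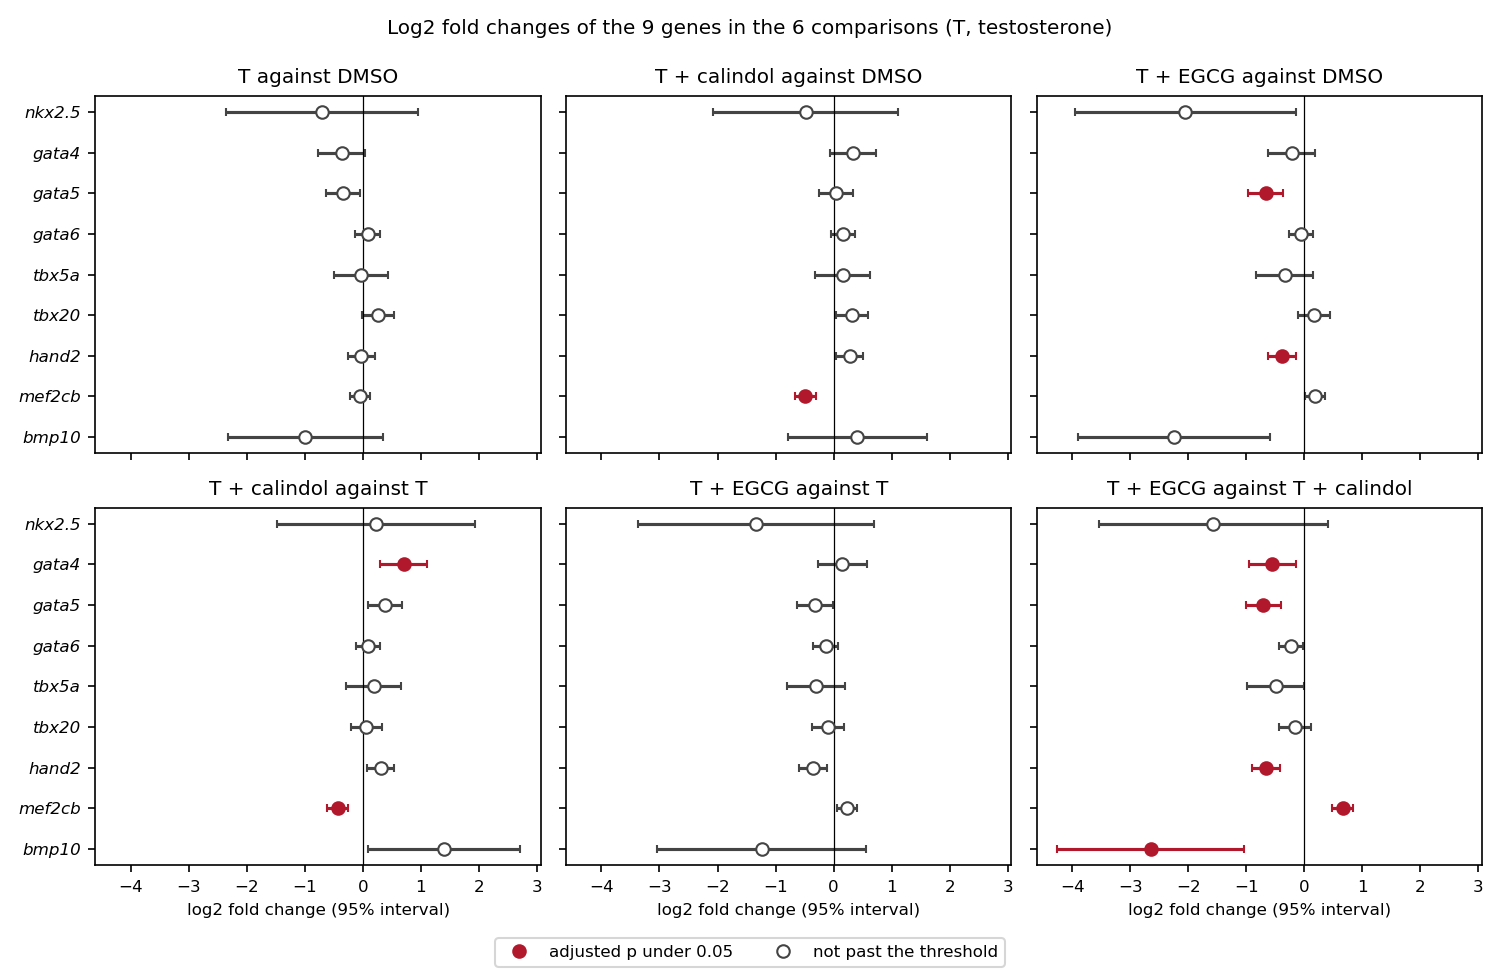
Log2 fold change (horizontal axis) of each gene in the 6 comparisons, with bars for the 95% interval of the edgeR fit and filled points for an adjusted p under 0.05. The intervals of nkx2.5 and bmp10 are several times wider than those of the other genes, and mef2cb is the only filled point above 0 for EGCG against calindol (0.67).

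Read by comparison, 0 of 9 genes rose and 1 fell with calindol against DMSO, where 27.4% of all tested genes passed, 11.5% higher and 15.9% lower. With EGCG against DMSO 0 rose and 2 fell, where 17% of all genes passed, 7.69% higher and 9.33% lower. Adding calindol to testosterone raised 1 and lowered 1, beside 25.8% of all genes, 11% higher and 14.8% lower. Adding EGCG to testosterone gave 0 calls with edgeR, beside 11.6% of all genes, 6.05% higher and 5.59% lower. There 3 of 9 genes (gata5, hand2 and mef2cb) had an unadjusted p under 0.05, and DESeq2 called 2.

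Groups whose 3 libraries did not overlap were common over all tested genes. For testosterone against DMSO 1 of 9 genes did not overlap, beside 26.4% of all genes, of which 13.4% were higher and 13% lower as shares of all tested genes. For calindol against DMSO 3 were higher and 2 lower without overlap, beside 43.1% of all genes (20.3% higher, 22.7% lower). For EGCG against DMSO 1 was higher and 4 were lower, beside 43.1% (21.4% higher, 21.6% lower). For calindol against testosterone 2 were higher and 1 lower, beside 36.4% (17.3% higher, 19% lower), and for EGCG against testosterone 0 were higher and 2 lower, beside 31.7% (15.8% higher, 15.9% lower). For EGCG against calindol 1 was higher and 8 were lower, beside 53.6% (24.9% higher, 28.7% lower).

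The median log2 fold change of the 9 genes against DMSO was −0.34 with EGCG, 0.17 with calindol and −0.05 with testosterone, where the median over all tested genes lay at 0.00, 0.01 and 0.00. Against testosterone it was −0.30 with EGCG and 0.23 with calindol, where all genes had medians of −0.02 and 0.01. For EGCG against calindol it was −0.55, and −0.06 over all genes. The comparisons share libraries, so their values are not independent of each other.

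The levels of these genes varied together only in part. Over the 12 libraries, log2 CPM of gata5 and hand2 correlated at Pearson r 0.77, of gata5 and bmp10 at 0.72 and of nkx2.5 and tbx5a at 0.68. After subtraction of group means the same pairs had r 0.27, −0.00 and 0.61, so the first 2 pairs were alike mainly between groups. The value for nkx2.5 and tbx5a rests on few nkx2.5 counts, and both genes varied most among the testosterone libraries. For gata5 and gata6 r was 0.67, and 0.80 after subtraction. All 8 pairs with mef2cb were negative, from −0.80 with hand2 to −0.32 with nkx2.5, and 4 of 8 stayed negative after subtraction. Of all 36 pairs, 24 were above 0. For nkx2.5 and bmp10 r was 0.19, and −0.80 after subtraction, a value that rests on few counts and on the testosterone libraries. These are descriptions over libraries that fall into 4 groups and share depth and scaling.

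**Figure D3:**
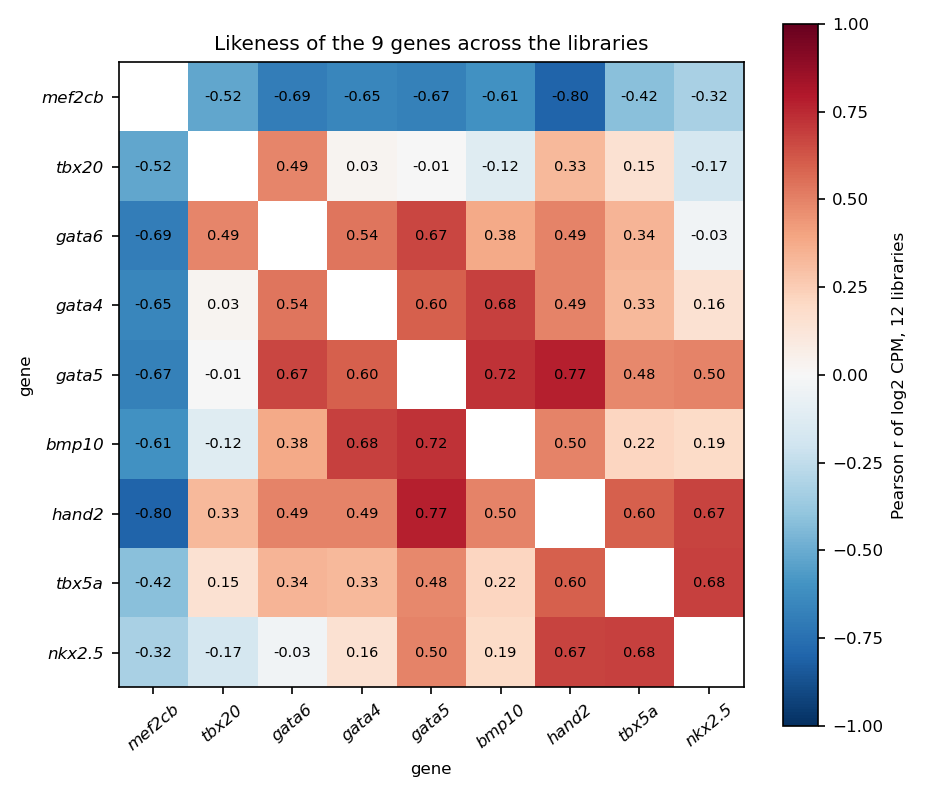
Pearson r of log2 CPM between each pair of the 9 genes over the 12 libraries, with both axes listing the genes and the colour running from −1 (blue) to 1 (red). The row of mef2cb is negative throughout, and gata5 with hand2 is the highest pair at 0.77.

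Each gene was compared with 16101 other tested genes with a mean of at least 1 CPM and a settled symbol. The closest profiles to hand2 were those of myhz2, a fast skeletal muscle myosin (r 0.98), and cacybp (0.96). For gata5 they were fahd2a (0.98) and snx10a (0.97), and for gata4 slc25a48 (0.94) and triobpa (0.92). For gata6 they were ubfd1 (0.96) and vta1 (0.94). For mef2cb the closest were ctnna2, a catenin of neuronal adhesion (0.97), and bicra (0.97). The level of ctnna2 averaged 82.3 CPM with EGCG, 32.3 CPM with calindol, 61.7 CPM with testosterone and 68.7 CPM with DMSO. For tbx20 the closest were selenop2 (0.94) and crabp2b (0.93), for tbx5a itgb3b (0.90) and actr3 (0.89), and for nkx2.5 st6galnac5b (0.90) and rab44 (0.89). For bmp10 they were cox7a2a and atp5mea, subunits of oxidative phosphorylation complexes (0.93 each). None of the heart muscle structural genes listed here was among these nearest profiles. Only the closest few of 16101 candidates were named for each gene, so little can be read from this absence. Whether the levels followed those of heart muscle structural genes was not tested here.

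Relatives of these factors were examined as a list of 19 genes, 15 of them tested. With testosterone 0 passed against DMSO with edgeR, 2 had an unadjusted p under 0.05, and DESeq2 called 1. The shares of all tested genes called, against which the counts of this and the next lists are read, were 43.1% for EGCG against calindol, 17% for EGCG, 27.4% for calindol and 6.32% for testosterone against DMSO, and 11.6% for EGCG and 25.8% for calindol against testosterone. With calindol 0 rose and 5 fell against DMSO, among them gata3 (log2 fold change −0.90, adjusted p 4.55e-05), gata2a (−0.80, adjusted p 4.76e-05), mef2d (−0.44, adjusted p 0.000545) and tbx5b (−0.99, adjusted p 0.0333). Gata2a and Gata3 are best known from blood, endothelial and neural development. With EGCG 1 rose and 0 fell against DMSO. Adding calindol to testosterone raised 0 and lowered 4 of the 15, and adding EGCG raised 2 and lowered 1. For EGCG against calindol 6 of 15 were higher and 1 was lower. Both directions together are near the background of 43.1%, but by direction 21.1% of all tested genes were higher and 22% lower. The median log2 fold change of the list was 0.19, and −0.06 over all tested genes. The level of gata3 was 98.7 ± 9.87 CPM with EGCG and 41.7 ± 2.28 CPM with calindol (SD, n = 3 each; log2 fold change 1.24, adjusted p 1.07e-06). The relative mef2d was also higher (0.63, adjusted p 1.27e-05), and tbx18, an epicardial factor, was lower (−0.42, adjusted p 0.034). Named here as the duplicate of mef2cb, mef2ca averaged 176 CPM with EGCG, 212 CPM with testosterone and 184 CPM with DMSO. It did not pass against DMSO with EGCG (log2 fold change −0.06, adjusted p 0.601) or with testosterone (0.21, adjusted p 0.0872). The bmp10 relatives bmp10l and gdf2, named here after their values were seen, did not pass in any comparison; bmp10l averaged 0.496 CPM with EGCG, 0.674 CPM with calindol, 0.230 CPM with testosterone and 0.270 CPM with DMSO.

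Of 26 tested cofactors and other regulators of heart development, 11 were higher and 2 lower with EGCG than with calindol. Both directions together are near the 43.1% of all tested genes called there. By direction they differ from it, as 21.1% of all tested genes were higher and 22% lower. The median log2 fold change of the list was 0.32. The libraries are of whole embryos, so the tissue in which these genes differed is not known. The iroquois gene irx4a, whose mouse counterpart marks the ventricle, was at 15.5 ± 2.60 CPM with EGCG and 3.68 ± 0.834 CPM with calindol (log2 fold change 2.06, adjusted p 9.21e-07). The Gata cofactor zfpm2a was at 45.8 ± 5.24 CPM with EGCG and 14.5 ± 4.53 CPM with calindol (1.65, adjusted p 7.17e-06). The homeobox gene meis2b (1.02, adjusted p 1.1e-06) and the nuclear receptor gene nr2f2 (0.83, adjusted p 7.34e-06) differed the same way, while the Krüppel-like factor gene klf2b was lower (−0.40, adjusted p 0.00178). Against DMSO, calindol raised 2 and lowered 11 of the 26, and EGCG raised 5 and lowered 2. Adding calindol to testosterone raised 0 and lowered 9 of them, and adding EGCG raised 2 and lowered 2. With testosterone alone 1 passed against DMSO, klf2b (0.44, adjusted p 0.00591).

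On the receiving side of Bmp10, 5 of 23 tested genes were higher and 5 lower with EGCG than with calindol, as were 21.1% and 22% of all tested genes, and the median was −0.01. The Alk1 gene acvrl1 was at 28.0 ± 2.12 CPM with EGCG and 37.9 ± 2.92 CPM with calindol (log2 fold change −0.43, adjusted p 0.00215). The target genes id1 (−0.39, adjusted p 0.00445) and id3 (−0.52, adjusted p 0.00381) were lower as well. The type II receptor genes bmpr2a (0.79, adjusted p 6.42e-06) and bmpr2b (0.46, adjusted p 0.000136) and the inhibitory smad7 (0.59, adjusted p 0.000571) were higher. Against DMSO, calindol raised 4 (id2a, smad6b, acvrl1 and id1) and lowered 2 (bmpr2a and bmpr2b), while EGCG raised 2 (smad6a and bmpr2a) and lowered 0. Adding calindol to testosterone raised 2 and lowered 3, and adding EGCG raised 2 and lowered 1. Testosterone alone raised smad6a against DMSO (0.68, adjusted p 0.0257).

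Structural and secreted products of heart muscle, many of them targets of these factors, were followed in 20 tested identifiers. Not all of them are confined to heart muscle in a whole embryo. Skeletal muscle also makes ttn.1, ttn.2 and desma, which averaged 1903, 1680 and 275 CPM with DMSO. These levels were not divided by gene length, so they are not compared with those of other genes. With EGCG 0 were higher and 10 lower than with calindol (median −0.36; 7 calls with DESeq2), beside 21.1% of all tested genes higher and 22% lower, among them nppa, the gene for atrial natriuretic peptide (−0.83, adjusted p 0.000244), the atrial light chain gene myl4 (−0.56, adjusted p 0.000708) and myh6 (−1.04, adjusted p 0.00137). Against DMSO, EGCG raised 0 and lowered 4, calindol raised 5 and lowered 2, and testosterone raised 2 and lowered 0. The 2 raised by testosterone were nppa (log2 fold change 0.74, adjusted p 0.00472) and myh7l (0.51, adjusted p 0.0072). The level of nppa was 13.8 ± 1.30 CPM with EGCG, 24.6 ± 2.09 CPM with calindol, 19.3 ± 3.39 CPM with testosterone and 11.5 ± 0.967 CPM with DMSO (SD, n = 3 each). Adding calindol to testosterone raised 2 and lowered 1, and adding EGCG raised 0 and lowered 5. Among 14 tested genes of the endocardium, epicardium and cardiac signalling, 0 passed with testosterone against DMSO with edgeR and with DESeq2, and 1 had an unadjusted p under 0.05. In the same list 2 were higher and 3 lower with EGCG than with calindol, beside 43.1% of all tested genes called, with a median of −0.18, including notch1b (0.85, adjusted p 7.17e-06) and bmp4 (−0.51, adjusted p 0.00369). Calindol raised 2 and lowered 3 of these against DMSO and raised 2 and lowered 2 against testosterone, and EGCG raised 0 and lowered 1 against DMSO and raised 1 and lowered 1 against testosterone.

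Markers of other tissues that use the same factors also moved between the groups. The summed CPM of 9 neuronal markers was 3246 to 3512 with EGCG, 1832 to 2435 with calindol, 2482 to 2942 with testosterone and 2773 to 2876 with DMSO. This neuronal list was added after these values were seen. The 10 skeletal muscle markers summed to 19795 to 21912 CPM with EGCG, 25132 to 30167 CPM with calindol, 20870 to 24748 CPM with testosterone and 24370 to 26235 CPM with DMSO. With DMSO, actc1b alone averaged 17366 of the 25092 CPM of that sum. Of the 8 tested skeletal muscle markers, 0 were higher and 6 lower with EGCG than with calindol, beside 21.1% of all tested genes higher and 22% lower. The 10 endothelial markers summed to 219.4 to 238.3 CPM with EGCG, 277.9 to 287.9 CPM with calindol, 242.3 to 249.0 CPM with testosterone and 233.9 to 245.2 CPM with DMSO. Neuronal and endothelial sums with calindol did not overlap those of any other group, and skeletal muscle sums with calindol overlapped those with DMSO. Heart muscle markers summed to 394.7 to 481.1 CPM with EGCG, 489.5 to 586.8 CPM with calindol, 435.2 to 539.0 CPM with testosterone and 481.7 to 522.5 CPM with DMSO. Most of that sum was actc1a, so it mainly follows that gene. With testosterone the identifiers of actc1a averaged 253 and 84.1 CPM, against 315 and 34.5 CPM with DMSO, and neither difference passed.

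Liver and gut markers, from tissues where Gata factors act, summed to 1059 to 1160 CPM with EGCG and 907 to 1032 CPM with calindol. They summed to 1191 to 1565 CPM with testosterone and 1485 to 1585 CPM with DMSO. Of these markers 14 of 16 had counts, and the calindol libraries were lowest. The 5 smooth muscle markers summed to 197.0 to 224.3 CPM with EGCG, 194.9 to 238.7 CPM with calindol, 135.5 to 191.0 CPM with testosterone and 312.4 to 319.3 CPM with DMSO. With testosterone alone 0 of these 5 rose and 4 fell against DMSO, acta2 among them (log2 fold change −1.10, adjusted p 4.42e-05). Of all tested genes 2.93% were higher and 3.39% lower there. Markers of pectoral fin, where tbx5a and hand2 act, summed to 1232 to 1301 CPM with EGCG, 1508 to 2118 CPM with calindol, 1462 to 1725 CPM with testosterone and 1540 to 1646 CPM with DMSO. Pharyngeal arch markers stayed between 194.2 and 206.0 CPM with EGCG, 212.7 and 219.8 CPM with calindol, 210.9 and 235.6 CPM with testosterone and 196.4 and 212.9 CPM with DMSO. Sympathetic neuron markers summed to 383.8 to 403.5 CPM with EGCG, 320.6 to 365.3 CPM with calindol, 396.8 to 412.3 CPM with testosterone and 379.1 to 391.4 CPM with DMSO. Blood markers, of which 6 of 8 had counts, summed to 976 to 1089 CPM with EGCG, 758 to 1038 CPM with calindol, 546 to 804 CPM with testosterone and 287 to 483 CPM with DMSO. Single genes made up much of several of these sums. With DMSO, tfa averaged 994 of 1532 CPM for liver and gut, and hbbe1.1 332 of 366 CPM for blood. Likewise tfap2a averaged 223 of 385 CPM for sympathetic neurons, and and2 and and1 averaged 773 and 489 of 1594 CPM for pectoral fin. The part of these tissues in the levels of the 9 genes was not tested.

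**Figure D4:**
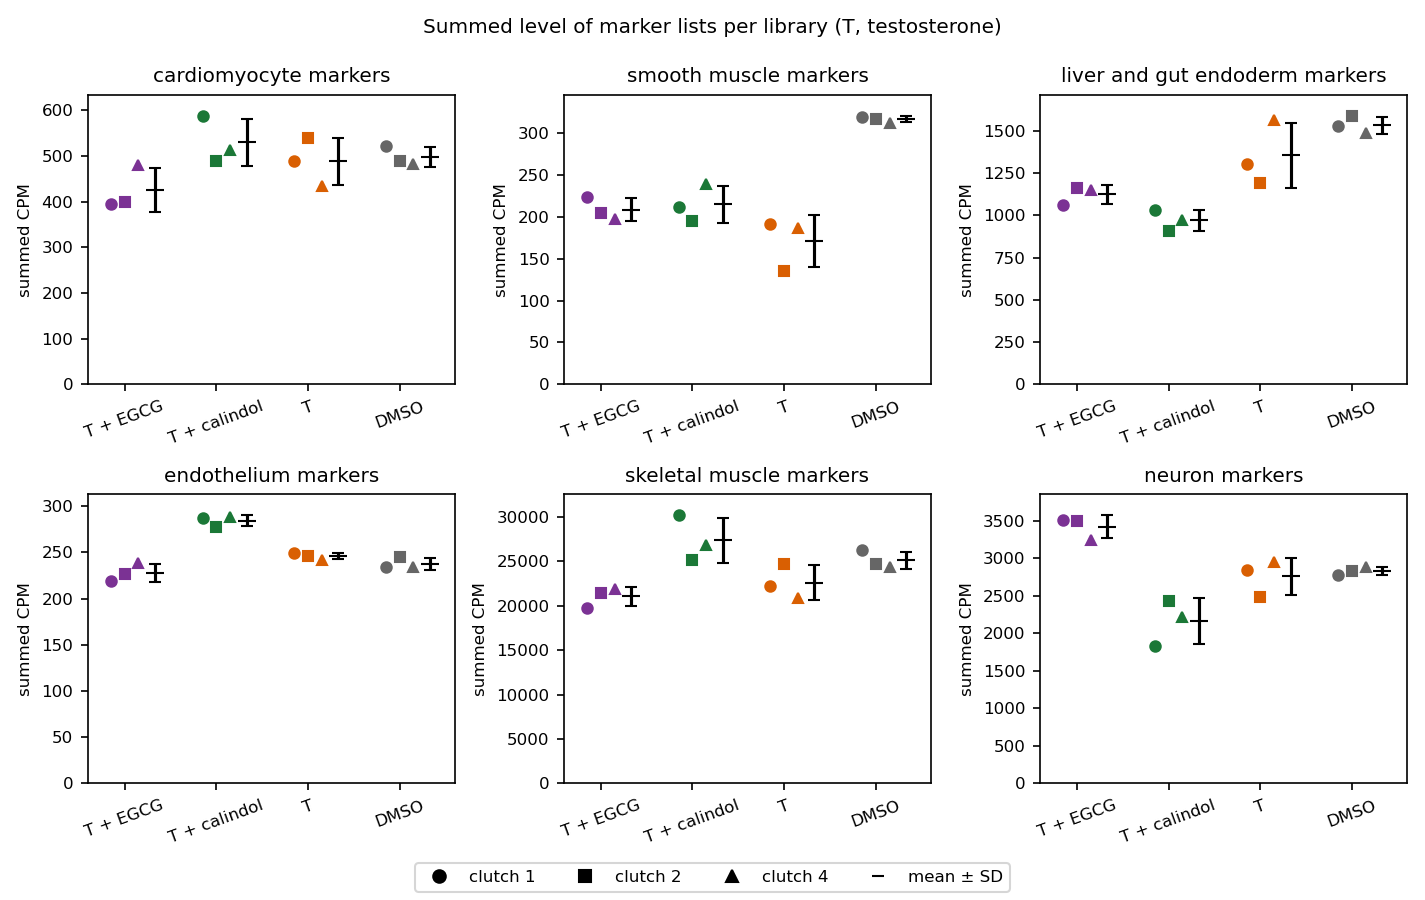
Summed CPM of 6 marker lists (vertical axis, linear, from 0) in the 12 libraries by group, with symbols for the clutch and bars for the mean ± SD of 3 libraries. Neuronal markers, a list added after these values were seen, are lowest with calindol (1832 to 2435 CPM). Endothelial markers are highest there (277.9 to 287.9 CPM), while smooth muscle markers are highest with DMSO (312.4 to 319.3 CPM). Most of the heart muscle (cardiomyocyte) sum is actc1a.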

How the data were processed

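The deposited values are whole-number counts per gene made by the authors. Per the submitters' processing notes, Trim Galore 0.6.10, STAR 2.7.1a, featureCounts and the build GRCz11 were used. The annotation release, the strand setting and the handling of multiply mapped reads are not given in the sources used here. Libraries were directional, per the labels.

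The filterByExpr step of edgeR, with its minimum count set to 10, retained 20237 of 32520 genes. Counts were scaled by TMM and fitted with edgeR 4.0.16 (R 4.3.3), with a mean per group over 12 libraries and two-sided tests. Intervals of fold changes are 95% intervals of that fit. Adjusted p-values that DESeq2 did not give were left out. Alternatives were DESeq2 1.42.0, other scalings, no filter, clutch as a block, only the 6 libraries compared, and each library left out. The clutch number is the labels' own and marks a shared spawning. After subtraction of group means, libraries of 1 clutch in different groups correlated at −0.09 to 0.10 across genes (mean 0.01, 18 pairs). Those of different clutches correlated at −0.23 to 0.22 (mean −0.006, 36 pairs), so sharing a clutch left no visible likeness. Replicates of a group differed by more than sampling noise (ratio of chi-square to its degrees of freedom 3.08 to 22.0).

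Levels of each of the 9 genes are printed for every library. Their fold changes are drawn for each comparison, and only some are printed in the text. From other lists, at most 4 called genes a direction with the smallest p were eligible, except where said. Coordinates and gene lengths were not used here. For likeness, the 2 genes with the highest Pearson r of log2 CPM (prior count 2) were named. The 9 genes and the lists were chosen with earlier results of these data known. The test was tested on simulated data with known changes. These were planted in genes with higher mean levels than nkx2.5 (0.753 CPM) and bmp10 (0.452 CPM). They were also larger than the changes that passed for gata4, gata5, hand2 and mef2cb, so the simulation does not bear on those calls. Intervals of summed counts are exact binomial and cover counting error only. One gene of the cofactor list is counted but not reported by name here.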

Additional observations from a re-analysis of the deposited data

How the results depend on the processing

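No available fold change of the 9 genes reversed under another scaling, no filter, DESeq2, the block or a fit of the 6 libraries compared. Of these values 306 kept their side of the threshold, 11 newly passed and 1 no longer did. Some were not available. For EGCG against testosterone, nkx2.5 and bmp10 each had 4 of these 6 alternatives. For EGCG and for calindol against DMSO, bmp10 had 5 of 6. With clutch as a block (replicate block), 1 of the 9 genes passed for EGCG against DMSO, and the block changed no other call among the 9. With only the 6 libraries compared, 2 of the 9 passed for calindol against DMSO, and 5876 of all genes passed for EGCG against DMSO and 3303 for calindol against testosterone; the cause was not tested. For calindol against testosterone 4 of the 9 passed with upper quartile scaling, with no filter and with DESeq2, and for EGCG against testosterone 2 passed with DESeq2. Upper quartile scaling put the calindol level of tbx5a at 6.81 CPM, beyond the spread of its group.

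Leaving out 1 library at a time, 0 to 1 of the 9 passed for testosterone against DMSO, 1 to 2 for calindol and 1 to 3 for EGCG against DMSO. The range was 1 to 4 for calindol and 0 to 2 for EGCG against testosterone, and 3 to 7 for EGCG against calindol. Over all genes the counts were 624 to 1649, 4115 to 5911, 1647 to 4252, 4049 to 5456, 584 to 3199 and 7074 to 9016 in the same order of comparisons. Leaving out a library reversed 11 log2 fold changes that had not passed in either fit, and the values of those results over such fits were as follows. For testosterone against DMSO, tbx5a ran from −0.21 to 0.21 (0.13 without DMSO library 1, 0.21 without testosterone library 4), gata6 from −0.038 to 0.16 and hand2 from −0.10 to 0.044. For calindol against DMSO, gata5 ran from −0.080 (without calindol library 1) to 0.13 and was −0.04 without DMSO library 4. For calindol against testosterone, nkx2.5 ran from −0.42 to 2.43 (−0.19 and −0.42 without testosterone libraries 2 and 4) and tbx5a from −0.045 to 0.38. For EGCG against testosterone, nkx2.5 ran from −2.44 to 0.86 and bmp10 from −1.66 to 0.31. The negative gata6 value came without testosterone library 2, the positive hand2, negative tbx5a and positive bmp10 values without library 4, and the positive nkx2.5 value without library 1. The counts per library were 1 to 28 for nkx2.5 and 1 to 16 for bmp10.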
